A study of Mus musculus with 8 samples.

Results

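The 10 genes described here belong to the transforming growth factor beta (TGF-beta) pathway and were followed across mouse cerebral cortex RNA exposed to fibroblast growth factor 2 (FGF2) alone or with a kinase inhibitor. The 10 genes were 3 ligands (Tgfb1, Tgfb2 and Tgfb3), the ligand activator Thbs1, both signalling receptors (Tgfbr1 and Tgfbr2), the signal carrier Smad3, the feedback inhibitor Smad7, the repressor Skil and the matrix target Tgfbi. They were all the members of a list written for this work and were found by symbol in the platform annotation, out of 18194 genes named on the array. The annotation gave 26 probe sets to these genes alone, and 25 of them passed the filter on low signal. The brightest probe set on average stood for each gene, and all 10 were among the 13174 genes tested. Each of 8 total RNA samples was hybridised to its own Affymetrix array, with 2 samples in each of 4 groups. One group received vehicle only and another FGF2; the others received FGF2 together with U0126 (an inhibitor of MEK, the kinase that activates ERK) or together with SB202190 (an inhibitor of the kinase p38). No group received an inhibitor without FGF2. The sources used here give no strain, age, dose or exposure time and do not say whether the RNA came from cultured cells or from tissue, and the title speaks of astroglia. One FGF2 with SB202190 sample carries the treatment word acclimatization where the others carry wait, and it was kept in its group. No source used here says that the 2 samples of a group are independent cultures or animals, and each p-value therefore reflects only how far these samples scatter, which could be technical.

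TGF-beta ligands are secreted in a latent complex and act only once they are released from it, for which thrombospondin-1, the product of Thbs1, is one known activator. The free ligand binds the type II receptor, which recruits and phosphorylates the type I receptor, and this in turn phosphorylates SMAD2 and SMAD3, which enter the nucleus with SMAD4 and bind DNA. SMAD7 blocks the receptors and SKIL, also called SnoN, holds SMAD complexes inactive. In the cortex astrocytes both make and respond to these ligands, and the pathway is known from reactive gliosis and scar formation.

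The promoters of the ligand that rose with FGF2 (Tgfb1), of a ligand that fell (Tgfb2) and of the matrix target that fell with both inhibitors (Tgfbi) are shown because the results turn on these 3 genes. Each window runs 5′ to 3′ from 250 bases before to 50 bases after the start site, from RefSeq on GRCm38.p6. Capitals mark CAGAC, the core letters of the SMAD binding element, or its reverse complement GTCTG.
Tgfb1 (chr7:25686752-25687051, plus strand): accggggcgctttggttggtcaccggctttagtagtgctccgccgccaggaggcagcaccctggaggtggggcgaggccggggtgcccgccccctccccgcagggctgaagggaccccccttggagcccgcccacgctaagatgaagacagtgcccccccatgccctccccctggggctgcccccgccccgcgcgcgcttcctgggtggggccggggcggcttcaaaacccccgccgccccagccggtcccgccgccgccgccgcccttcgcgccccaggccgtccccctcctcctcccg
Tgfb2 (chr1:186705940-186706239, minus strand): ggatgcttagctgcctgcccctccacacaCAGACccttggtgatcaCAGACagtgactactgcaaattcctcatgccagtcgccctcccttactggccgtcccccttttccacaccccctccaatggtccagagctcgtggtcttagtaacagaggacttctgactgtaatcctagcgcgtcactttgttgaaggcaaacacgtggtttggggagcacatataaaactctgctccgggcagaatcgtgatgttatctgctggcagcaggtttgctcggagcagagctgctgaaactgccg
Tgfbi (chr13:56609336-56609635, plus strand): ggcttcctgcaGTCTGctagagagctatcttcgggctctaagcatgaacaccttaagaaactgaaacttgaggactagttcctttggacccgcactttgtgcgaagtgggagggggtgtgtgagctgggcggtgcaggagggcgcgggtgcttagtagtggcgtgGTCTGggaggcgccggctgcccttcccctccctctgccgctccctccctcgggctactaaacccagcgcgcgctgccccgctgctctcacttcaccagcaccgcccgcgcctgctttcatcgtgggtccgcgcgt
The Tgfb1 window held no CAGAC on either strand and 77.0% of its bases were G or C. In the Tgfb2 window CAGAC began at positions -221 and -204 from the start site on the gene's own strand, TATAAA at -31 and CACGTG at -51, and 54.3% of its bases were G or C. In the Tgfbi window, at 63.3% G or C, CAGAC began at -239 and -85 and lay on the opposite strand both times. Of the 32851 promoter windows in the table, 49.6% held CAGAC, 13.6% held TATAAA and 7.15% held CACGTG on either strand, and the median window had 52.7% G or C. The longer palindrome GTCTAGAC was in 0.213% of all windows and TGANTCA, the letters of an AP-1 site, in 7.81%. Neither was in a window of the 6 listed genes whose windows were used here (Smad3, Tgfb1, Tgfb2, Tgfbi, Tgfbr1 and Tgfbr2). Windows of Tgfb3, Thbs1, Skil and Smad7 were not used. These matches describe letters in a window and nothing about binding.

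The deposited signals were linear intensities scaled so that each array had a mean of 150.001 after 2% of the values were trimmed at each end, and the median signal ran from 22.3 to 27.8. Over the genes tested, normalized log2 values of replicate arrays correlated at 0.980 to 0.984 and those of different groups at 0.947 to 0.981. The 3′ to 5′ signal ratio of Actb, a sign of RNA quality, was 1.26 and 1.28 on the U0126 arrays and 1.31 to 1.41 on the others. For Gapdh the same ratio was 0.745 and 0.758 on the U0126 arrays and 0.697 to 0.777 on the others. The spiked-in cre control read 9453 on FGF2 replicate 2 and between 6829 and 7617 on the other arrays. All 12 astrocyte markers passed the filter, whereas 4 of 8 neuronal markers, Rbfox3, Snap25, Nefl and Slc17a7, did not. The neuronal markers that passed read 382 to 583 (Map2), 50.4 to 170 (Tubb3), 15.3 to 41.2 (Syt1) and 4.25 to 18.1 (Gad1). The summed astrocyte signal was 25527 and 25801 with vehicle, 13742 and 13872 with FGF2, 17045 and 17374 with U0126 added, and 13482 and 13619 with SB202190 added. In such bulk RNA, fewer cells of a type and less RNA per cell cannot be told apart.

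FGF2 split the 10 genes. Tgfb1, Smad3, Smad7 and Skil rose against vehicle, and Tgfb2, Tgfb3, Thbs1 and Tgfbr2 fell, which leaves Tgfbr1 and Tgfbi outside the threshold (limma over all 8 arrays, Benjamini-Hochberg adjusted p under 0.05 over all genes tested, here termed called). These 8 of 10 stand beside 37.9% of all tested genes called in the same comparison. With arrays centred on the median of all probe sets, which moves the median of all genes to 0.158 on the log2 scale, 6 rose and 3 fell, with Tgfbr1 and Tgfbi among the higher and Tgfbr2 at 0.050 and not called. With that centring 4018 of all 13178 genes tested were called higher and 1479 lower. The median log2 change was 0.17 over the 10 genes and near 0 over all genes. After normalization the 2 FGF2 arrays and the 2 vehicle arrays lay apart even for Tgfbr1 and Tgfbi, which were not called. In the deposited signals of the plot by array those of Tgfbr1 overlap. No share over all tested genes is given for arrays that lie apart, so nothing particular to the 10 genes is read from it.

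U0126 lowered 6 of the 10 genes against FGF2 alone (Tgfb1, Tgfbr1, Tgfbr2, Smad3, Skil and Tgfbi) and raised none, where 22.1% of all tested genes were called in either direction. SB202190 lowered 2, Skil and Tgfbi, and raised none, where 3.02% of all tested genes were called. Both inhibitor comparisons share the FGF2 arrays. Against vehicle, 7 of the 10 were lower and 0 higher with FGF2 and U0126 (31.7% of all tested genes called), with 4 lower after centring on the median of all probe sets, and 5 were lower and 3 higher with FGF2 and SB202190 (35.8% called). Set directly against SB202190, U0126 left 6 lower and 1 higher (22.7% called). Each count over the 10 genes used the same threshold as the background. The lower Actb 3′ to 5′ ratio of the U0126 arrays moves with every U0126 comparison, and its part in these results was not tested. Their Gapdh ratio lay within the range of the other arrays.

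**Figure D1:**
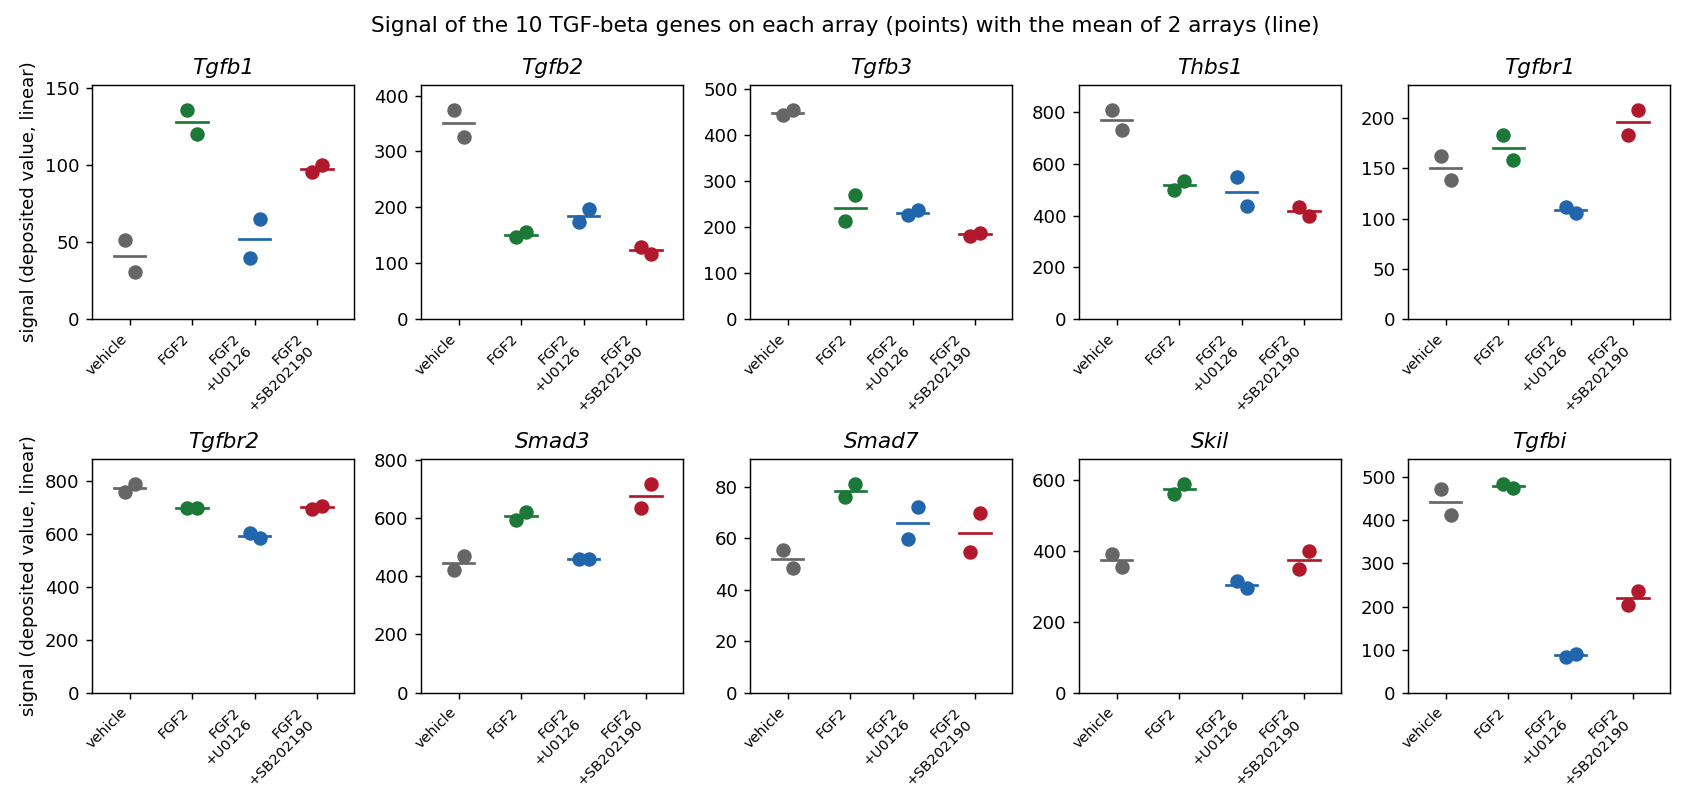
Deposited signal (linear scale, each panel from 0) of the probe set that represents each of the 10 genes, with 1 point per array and a line at the mean of the 2 arrays of a group. Tgfb1 is highest with FGF2 at 120 and 135, Tgfb2, Tgfb3 and Thbs1 are highest with vehicle, and Tgfbi is lowest with U0126 at 83.7 and 90.5.

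The 3 ligands moved in opposite directions with FGF2. Tgfb1, the isoform best known from injury and inflammation, had signals of 50.9 and 30.5 with vehicle, 135 and 120 with FGF2, 39.5 and 64.5 with U0126 added, and 95.1 and 99.7 with SB202190 added. Both FGF2 arrays lay above all 6 others, and the U0126 arrays overlapped vehicle. The log2 change with FGF2 was 1.78 ± 0.26 (SE, 2 arrays a group, limma adjusted p = 0.000133), a 3.43-fold rise, and U0126 took it down by a log2 change of -1.29 ± 0.26 (adjusted p = 0.0034). With U0126 the remaining difference from vehicle was 0.49 (95% interval -0.08 to 1.06, adjusted p = 0.185), and it was called at 0.85 without vehicle replicate 1 and at 0.84 without U0126 replicate 1. SB202190 gave -0.38 against FGF2 (95% interval -0.94 to 0.19, adjusted p = 0.519). The U0126 arrays were lower than the SB202190 arrays by a log2 difference of -0.92 (adjusted p = 0.0235), which was not called without U0126 replicate 1 (-0.56, adjusted p = 0.202), without either SB202190 array, with no filter or with the mean of its probe sets (-0.32, adjusted p = 0.408).

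A second Tgfb1 probe set gave low signals of at most 34.8 and a log2 change of 0.09 with FGF2 that was not called, so the Tgfb1 result rests on 1 of its 2 probe sets. Averaged over both probe sets, the Tgfb1 difference between SB202190 and vehicle was 0.45 (adjusted p = 0.177) in place of 1.40 (adjusted p = 0.000899). Of 11 markers of microglia, a known source of Tgfb1 in brain, 6 passed the filter and 5 (Aif1, Cx3cr1, P2ry12, C1qa and Itgam) did not. Among those that passed, Cd68 read 113 to 306, Ctss 81.9 to 253, Tmem119 22.5 to 56.8 and Csf1r 9.25 to 62.6 over the 8 arrays. The summed signal of the list was 519 and 648 with vehicle, 429 and 460 with FGF2, 514 and 526 with U0126 added, and 422 and 460 with SB202190 added. Of these sums Cd68 gave 134 and 150 with FGF2 and 251 and 306 with U0126 added. Ctss gave 114 and 116 with FGF2 and 81.9 and 97.0 with U0126 added. With U0126 against FGF2 1 of the 6 markers was called higher, 0 lower and 5 were not called, beside 22.1% of all tested genes called. With FGF2 Ctss was called lower and the other 5 were not called, with Csf1r at 1.29 (adjusted p = 0.0693). In that comparison 37.9% of all tested genes were called. The part of microglia in the Tgfb1 result was not tested.

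Tgfb2, a ligand that astrocytes and meningeal cells make, read 374 and 326 with vehicle, 146 and 155 with FGF2, 174 and 196 with U0126 added, and 128 and 117 with SB202190 added. The vehicle arrays stood above all 6 others, and the 4 groups did not overlap. FGF2 lowered Tgfb2 by a log2 change of -1.20 ± 0.12 (adjusted p = 5.48e-06), and all 4 of its probe sets were called lower, from -0.70 to -1.20. Against FGF2, U0126 gave 0.28 (95% interval 0.01 to 0.54, adjusted p = 0.130) and SB202190 gave -0.29 (95% interval -0.56 to -0.03, adjusted p = 0.238), so neither passed the threshold. Between the inhibitors the difference was 0.57 (adjusted p = 0.00464), with U0126 the higher, and it was not called with the mean of the probe sets (0.41, adjusted p = 0.0776). Without probe sets that can bind several transcripts, Tgfb2 is read by another probe set, which gave 0.59 with U0126 against FGF2 (adjusted p = 0.0445) and -0.35 against vehicle (adjusted p = 0.195), in place of -0.92 (adjusted p = 7.52e-05).

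Tgfb3, the remaining isoform, read 443 and 454 with vehicle, 213 and 268 with FGF2, 225 and 236 with U0126 added, and 180 and 187 with SB202190 added. Again vehicle was highest, the U0126 arrays lay within the range of the FGF2 arrays, and the SB202190 arrays lay below all others. Tgfb3 was lower with FGF2 by -0.90 ± 0.11 on the log2 scale (adjusted p = 3.44e-05), and against FGF2 neither U0126 (-0.07, 95% interval -0.31 to 0.18, adjusted p = 0.728) nor SB202190 (-0.38, 95% interval -0.63 to -0.14, adjusted p = 0.0922) was called. Both inhibitor groups stayed lower than vehicle, at -0.97 with U0126 and -1.28 with SB202190.

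Thbs1, which encodes a matrix protein that releases latent ligand, read 809 and 732 with vehicle, 500 and 534 with FGF2, 548 and 437 with U0126 added, and 433 and 399 with SB202190 added. Vehicle was again apart from the rest, while the U0126 arrays spanned the FGF2 arrays. FGF2 lowered it by a log2 change of -0.61 ± 0.10 (adjusted p = 0.000466), and its second probe set fell by 1.05. A further probe set named both Thbs1 and Pald1 and was not used to name either. It was brighter, at 1664 and 1540 with vehicle and 1251 and 1153 with FGF2. Its log2 change with FGF2 was -0.44 (limma adjusted p = 0.0016 over all probe sets). Against FGF2 it was not called with U0126 (-0.21) or SB202190 (-0.16). With inhibitor against FGF2, Thbs1 changed by -0.08 with U0126 (adjusted p = 0.646) and -0.31 with SB202190 (adjusted p = 0.138), neither called. Against vehicle the brightest probe sets of Tgfb2, Tgfb3 and Thbs1 were called lower in both inhibitor groups, by 0.69 to 1.49 on the log2 scale. For Tgfb2 with U0126 this held for 2 of its 4 probe sets, and the other 2 gave -0.35 and -0.19 and were not called.

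With FGF2, markers of meningeal fibroblasts and pericytes, cells that also make these ligands, were mostly called lower, like Tgfb2, Tgfb3 and Thbs1. Of 15 such markers 14 passed the filter. Of these, 8 were lower, 1 higher and 5 not called, beside 37.9% of all tested genes called. Their summed signal was 20418 and 21303 with vehicle, 14859 and 17628 with FGF2, 15029 and 15220 with U0126 added, and 13261 and 14946 with SB202190 added. All 12 astrocyte markers and 5 of 6 ependymal markers were also lower with FGF2. The part of any of these cell types in the fall of these 3 genes was not tested.

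**Figure D2:**
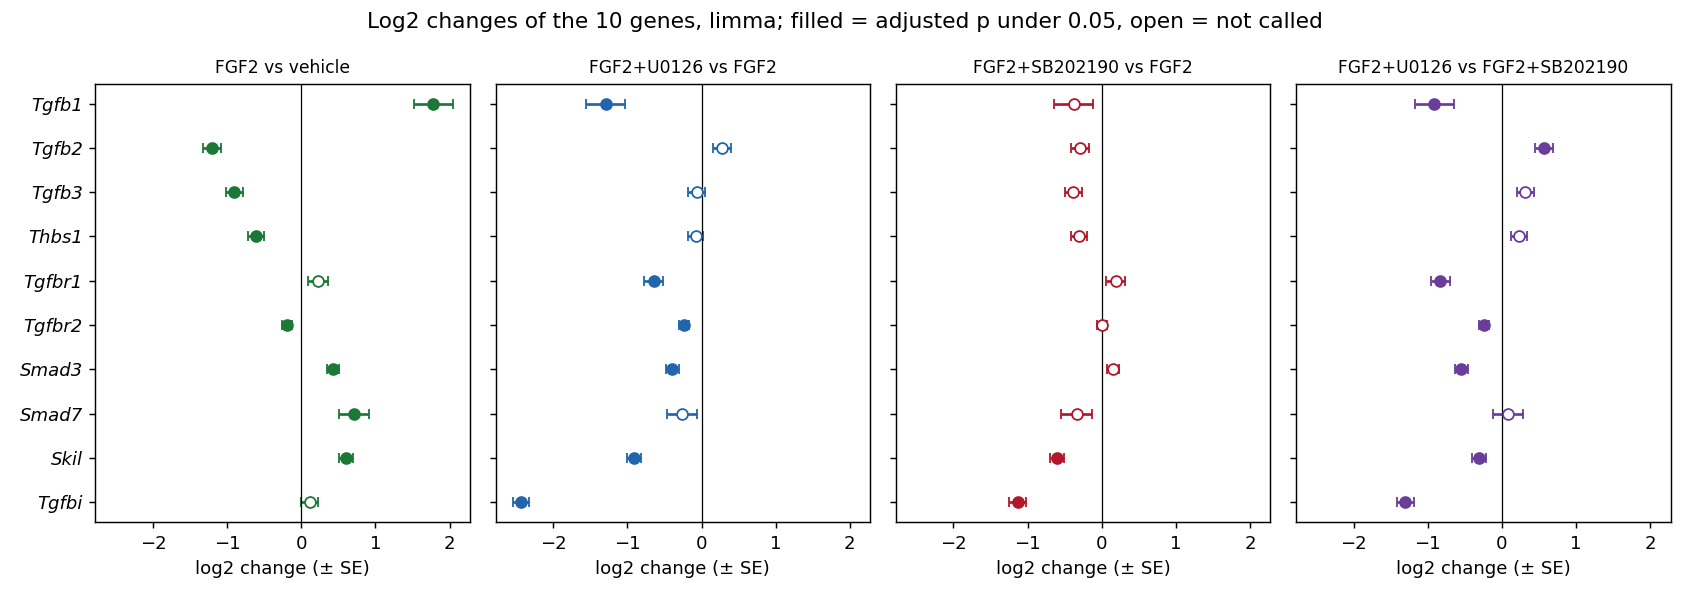
Log2 change of each of the 10 genes (points) with its SE (bars) in 4 comparisons named above the panels, where filled points passed an adjusted p under 0.05. Under U0126, 6 genes lie below 0 and are filled; under SB202190 Skil at -0.60 and Tgfbi at -1.13 are. The filled Tgfbr2 point for FGF2 against vehicle turns to 0.050 and is not called when arrays are centred on the median of all probe sets.

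Both receptors were lower with U0126 than with FGF2 alone, and for Tgfbr2 the step was small. Tgfbr1, the type I receptor kinase, read 162 and 138 with vehicle, 183 and 158 with FGF2, 112 and 105 with U0126 added, and 184 and 208 with SB202190 added. The U0126 arrays were the lowest of all 8. FGF2 gave a log2 change of 0.22 ± 0.13 (95% interval -0.06 to 0.51, adjusted p = 0.216), which was called at 0.38 after centring on the median of all probe sets. U0126 lowered Tgfbr1 by -0.65 ± 0.13 against FGF2 (adjusted p = 0.00362) and by -0.83 against SB202190 (adjusted p = 0.000592), the latter not called with the mean of its probe sets (-0.69, adjusted p = 0.0792). SB202190 gave 0.19 against FGF2 (adjusted p = 0.527). Its 2 dimmer probe sets, at 18.6 to 34.2 and 2.85 to 24.4, also gave values below 0 for U0126 against FGF2 and were not called. Against vehicle, Tgfbr1 was lower with U0126 (-0.42, adjusted p = 0.0266) and higher with SB202190 (0.41, adjusted p = 0.028). The first was not called without vehicle replicate 1 (-0.32, adjusted p = 0.168) or without either U0126 array, nor the second without vehicle replicate 2 (0.31, adjusted p = 0.174) or SB202190 replicate 2 (0.32, adjusted p = 0.187). With the mean of the probe sets neither was called, at -0.59 (adjusted p = 0.0959) and 0.092 (adjusted p = 0.817).

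Tgfbr2, the type II receptor that binds the ligand first, read 758 and 789 with vehicle, 698 and 698 with FGF2, 601 and 583 with U0126 added, and 696 and 705 with SB202190 added. The order was vehicle, then FGF2 and SB202190 together, then U0126, with small steps. FGF2 lowered it by -0.19 ± 0.07 on the log2 scale (adjusted p = 0.0427), a call that was lost without any 1 of the vehicle or FGF2 arrays and that turned to 0.050 with centring on the median of all probe sets. U0126 lowered it further by -0.24 ± 0.07 against FGF2 (adjusted p = 0.022), which was not called without either FGF2 array, without U0126 replicate 2, with that centring (-0.23, adjusted p = 0.0837) or with the mean of its probe sets (-0.057, adjusted p = 0.871). With U0126 against vehicle the change was -0.43 (adjusted p = 0.000324), and it was not called with that centring (-0.18, adjusted p = 0.130) or with the mean of its probe sets (-0.24, adjusted p = 0.365). SB202190 left it at 0.003 against FGF2 (95% interval -0.14 to 0.15) and at -0.18 against vehicle (adjusted p = 0.048), where it became 0.064 with centring on the median of all probe sets and was not called without any 1 vehicle or SB202190 array. A second probe set gave -0.28 with FGF2 and was not called, and the remaining one did not pass the filter, at signals of 5.39 to 13.2.

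Smad3, Smad7 and Skil all rose with FGF2, and their calls under the inhibitors were not alike. Smad3, which carries the receptor signal to DNA, read 422 and 470 with vehicle, 594 and 621 with FGF2, 461 and 461 with U0126 added, and 635 and 719 with SB202190 added. The U0126 arrays lay within the vehicle range, and the SB202190 arrays lay above FGF2. FGF2 raised Smad3 by 0.43 ± 0.08 on the log2 scale (adjusted p = 0.00139), with all 3 of its probe sets called, up to 0.86. U0126 lowered all 3 again, by -0.39 ± 0.08 for the brightest (adjusted p = 0.00482, and 0.0521 without FGF2 replicate 2), and left it 0.03 from vehicle (95% interval -0.15 to 0.22). SB202190 gave 0.15 against FGF2 (95% interval -0.03 to 0.33, adjusted p = 0.401), and against vehicle Smad3 stayed higher at 0.58 (adjusted p = 0.000133). The inhibitors differed by -0.55, with U0126 the lower (adjusted p = 0.00049).

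Smad7, the inhibitory SMAD that the pathway itself induces, was a dim probe set at 55.4 and 48.3 with vehicle, 76.0 and 81.3 with FGF2, 59.6 and 72.1 with U0126 added, and 54.6 and 69.9 with SB202190 added. FGF2 was highest, the U0126 arrays lay between FGF2 and vehicle, and the SB202190 arrays reached into the vehicle range. The rise with FGF2 was 0.71 ± 0.20 on the log2 scale (adjusted p = 0.0145). It was not called without vehicle replicate 2 (0.63, adjusted p = 0.076), without FGF2 replicate 2 (0.65, adjusted p = 0.0856) or with the mean of its 2 probe sets (0.44, adjusted p = 0.161), of which the second gave 0.17. Neither inhibitor changed it past the threshold against FGF2, at -0.26 (95% interval -0.70 to 0.18) with U0126 and -0.34 (95% interval -0.78 to 0.10) with SB202190.

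Skil, the repressor of SMAD complexes, read 390 and 355 with vehicle, 559 and 588 with FGF2, 313 and 295 with U0126 added, and 348 and 399 with SB202190 added. Both FGF2 arrays stood above all 6 others, the SB202190 arrays spanned the vehicle arrays, and the U0126 arrays were lowest. FGF2 raised Skil by 0.60 ± 0.09 on the log2 scale (adjusted p = 0.000223), U0126 lowered it by -0.92 ± 0.09 (adjusted p = 2.10e-05) and SB202190 lowered it by -0.60 ± 0.09 (adjusted p = 0.00488). With SB202190 the distance from vehicle was 0.00 (95% interval -0.20 to 0.21), and with U0126 Skil lay below vehicle by -0.31 (adjusted p = 0.0226). The SB202190 call was lost without FGF2 replicate 2 (-0.56, adjusted p = 0.0754) and with the mean of its 2 probe sets (-0.32, adjusted p = 0.334), since the dimmer probe set gave -0.03. The step below vehicle was not called without vehicle replicate 1 (-0.25, adjusted p = 0.15), without U0126 replicate 2 (-0.27, adjusted p = 0.115), with the mean of its probe sets (-0.12, adjusted p = 0.591) or with centring on the median of all probe sets (-0.08, adjusted p = 0.575). Of the 4 genes that rose with FGF2, Skil was called lower with both inhibitors, Tgfb1 and Smad3 with U0126, and Smad7 with neither.

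Tgfbi, a secreted matrix protein first known as a TGF-beta induced gene, had the largest log2 change of the 10 against FGF2 with either inhibitor. Its signals were 473 and 413 with vehicle, 485 and 476 with FGF2, 83.7 and 90.5 with U0126 added, and 203 and 235 with SB202190 added. The vehicle and FGF2 arrays were close to each other, the SB202190 arrays were lower and the U0126 arrays lowest, with no overlap between these 3 levels. FGF2 gave a log2 change of 0.11 ± 0.11 (95% interval -0.13 to 0.35, adjusted p = 0.470), which was called at 0.32 after centring on the median of all probe sets. U0126 lowered Tgfbi by -2.44 ± 0.11 against FGF2 (adjusted p = 2.32e-08), a 5.41-fold fall, and by -2.32 against vehicle (adjusted p = 9.23e-09). SB202190 lowered it by -1.13 ± 0.11 against FGF2 (adjusted p = 0.000216), a 2.19-fold fall, and by -1.02 against vehicle (adjusted p = 9.89e-06). The inhibitors differed by -1.30 ± 0.11, with U0126 the lower (adjusted p = 3.70e-06).

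All 4 Tgfbi probe sets were called lower with U0126, from -1.73 to -3.03, and 3 of the 4 with SB202190, from -0.69 to -1.13. The other one gave -0.78 with SB202190 (adjusted p = 0.0806 over all probe sets), and it represents the gene when probe sets that can bind several transcripts are left out, where the SB202190 call was lost (-0.78, adjusted p = 0.0595). Of the 14 fibroblast and pericyte markers tested, 3 were called lower with U0126 against FGF2 (Lum at -1.04, Pdgfra at -0.93 and Dcn at -0.28), 1 higher (Ogn at 0.47) and 10 were not called. In that comparison 22.1% of all tested genes were called. The summed signal of the list was 14859 and 17628 with FGF2 and 15029 and 15220 with U0126, of which Igfbp2 gave between 7522 and 9778. The part of these cells in the fall of Tgfbi was not tested.

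**Figure D3:**
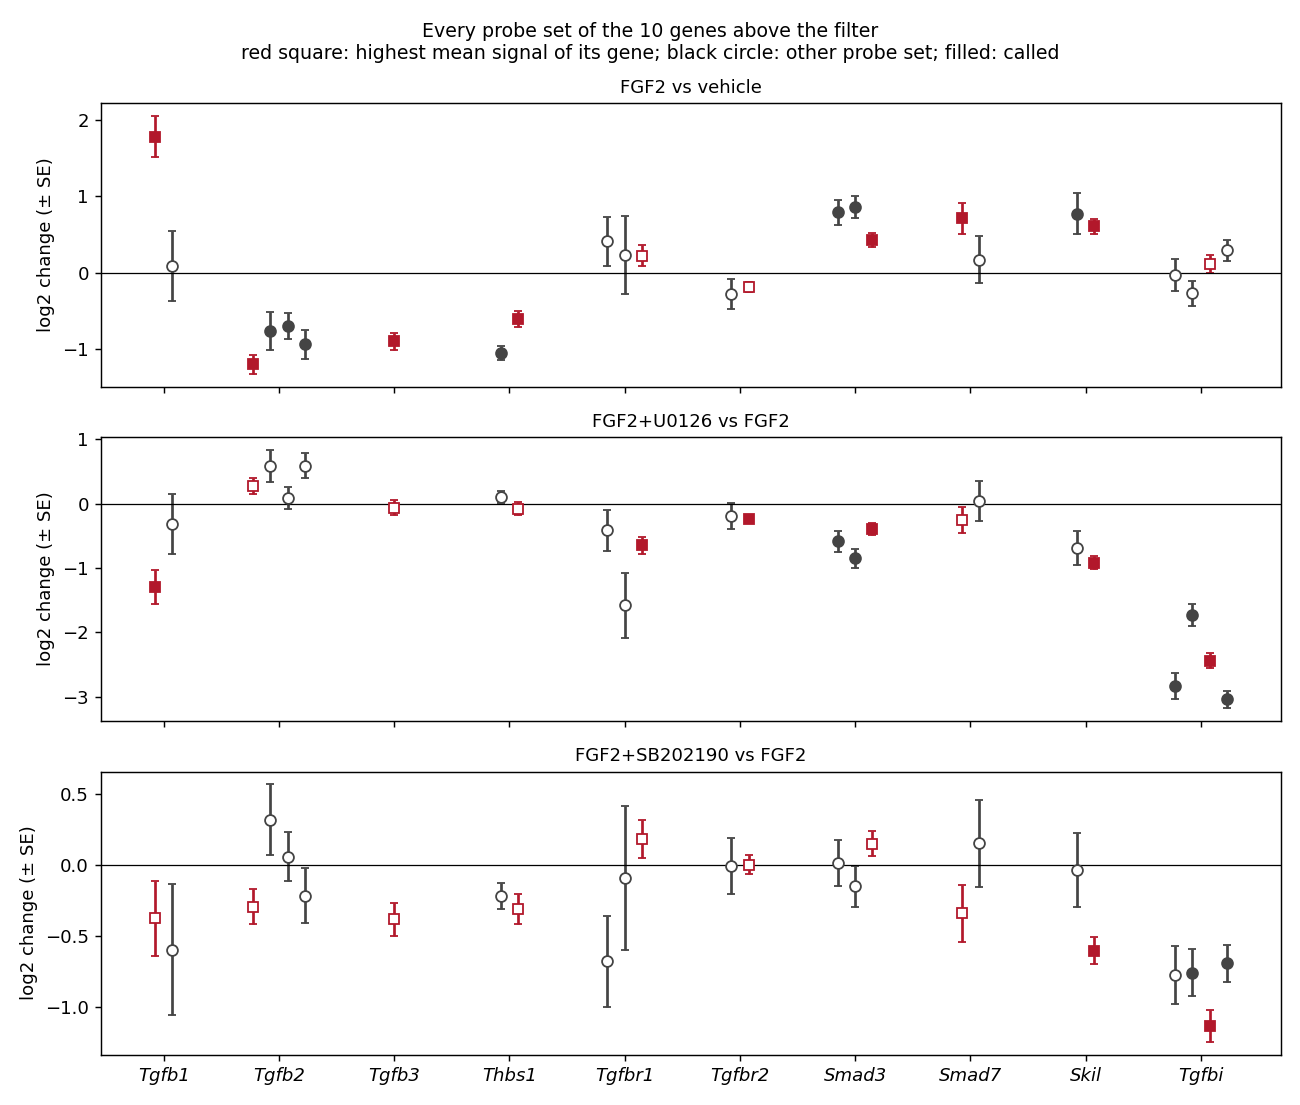
Log2 change (± SE) of the 25 probe sets of the 10 genes above the filter, in the 3 comparisons named above the panels; red squares are the brightest probe set of a gene, black circles its others, and filled symbols passed an adjusted p under 0.05 over all probe sets. All 4 Tgfb2 probe sets fell with FGF2, all 4 Tgfbi probe sets fell with U0126, and the second Tgfb1 probe set is near 0 at 0.09. The brightest Tgfbr2 probe set is open for FGF2 here, at an adjusted p of 0.054, and its direction turns with centring on the median of all probe sets.

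Besides the brightest probe set of each gene, 15 others passed the filter. With FGF2 13 of the 15 had the sign of the brightest one and 7 were called with it, beside 30.5% of all probe sets called. With U0126 against FGF2 13 of 15 had the same sign and 5 were called (16.3% of all probe sets), and with SB202190 8 of 15 had the same sign and 2 were called (1.91%). None of the 15 was called in the direction opposite to its gene's brightest probe set in any of the 6 comparisons.

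Other genes of the pathway were read from 4 lists of 62 genes, of which 59 were matched on the array and 56 passed the filter. With FGF2 11 were higher, 18 lower and 27 not called, beside 37.9% of all tested genes called, with 14 higher and 15 lower after centring on the median of all probe sets. With U0126 against FGF2 8 were higher and 15 lower, beside 22.1%, with 5 higher and 17 lower after centring on the median of the genes tested. With SB202190 against FGF2 1 was higher and 6 lower, beside 3.02%, with 0 higher and 5 lower after centring on the median of all probe sets. Over all 13178 genes tested, these centrings gave 4018 higher and 1479 lower (FGF2), 1296 and 1656 (U0126), and 124 and 111 (SB202190). The counts of each list are read against the same shares, and nothing particular to a list is read from them.

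Among 11 genes of ligand latency and activation, FGF2 raised 2 and lowered 4 (37.9% of all tested genes called), and U0126 raised 0 and lowered 4 (22.1% called). Ltbp1, which ties latent ligand to the matrix, had signals of 124 and 98.0 with vehicle, 349 and 262 with FGF2, 97.9 and 110 with U0126 added, and 251 and 254 with SB202190 added. Its U0126 arrays were back in the range of vehicle, or just below it, and its SB202190 arrays stayed above. Ltbp1 thus rose by 1.48 with FGF2 and fell by 1.52 with U0126, the latter not called when its probe sets were averaged (-1.14, adjusted p = 0.0684). Itgav, the integrin subunit that frees latent ligand, had the same course, at 0.49 with FGF2 and -0.53 with U0126, the second again not called with the mean of its probe sets (-0.55, adjusted p = 0.112). Dcn, a proteoglycan that binds TGF-beta, fell by 0.86 with FGF2, and was at -0.17 and not called with the mean of its probe sets.

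Of 13 other receptors, activins and their antagonists, FGF2 raised 1 and lowered 4 (37.9% of all tested genes called), U0126 raised 1 and lowered 3 (22.1%), and SB202190 lowered 1 (3.02%). Tgfbr3, the co-receptor betaglycan that presents Tgfb2 to the signalling receptors, read 325 and 275 with vehicle and 141 and 153 with FGF2, which was -1.01 ± 0.12 on the log2 scale (adjusted p = 2e-05). Its fall stands beside that of Tgfb2 itself. Fst, which encodes the activin trap follistatin, fell by 0.98 with FGF2 and by a further 0.70 with U0126 and 0.60 with SB202190. That last call was lost without any 1 of the FGF2 or SB202190 arrays (adjusted p of 0.0649 to 0.193).

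Of 16 SMADs and their regulators FGF2 raised 5 and lowered 0, a smaller share than the 37.9% of all tested genes called, U0126 raised 3 and lowered 4 (22.1%), and SB202190 raised 1 and lowered 2 (3.02%). Tgif1, a corepressor of SMAD complexes, read 248 and 244 with vehicle and 606 and 591 with FGF2, which was 1.28 ± 0.08 on the log2 scale (adjusted p = 4.34e-08). Unlike Skil it was not lowered by either inhibitor: against vehicle it was higher by 1.58 with U0126 and by 1.38 with SB202190. Pmepa1, a SMAD antagonist that TGF-beta induces, was lowered by both inhibitors against FGF2, at -0.87 with U0126 and -0.80 with SB202190. It read 388 and 393 with FGF2, 205 and 223 with U0126 added, and 252 and 196 with SB202190 added. Its SB202190 call was lost without FGF2 replicate 2 (-0.79, adjusted p = 0.0521). Bambi, a pseudoreceptor, fell by 0.57 with SB202190, a call lost without either FGF2 array or SB202190 replicate 2.

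Of 16 other genes known as TGF-beta targets in many cells, FGF2 raised 3 and lowered 10 (37.9% of all tested genes called), U0126 raised 4 and lowered 4 (22.1%), and SB202190 raised 0 and lowered 2 (3.02%). With FGF2 the collagen genes Col1a1 and Col1a2 fell by 1.40 and 1.15 on the log2 scale and Postn, a matrix protein gene, by 0.91, while Fn1, which encodes the matrix protein fibronectin, rose by 0.71 and Ccn2, a matricellular protein gene, by 0.32. Col1a1 and Col1a2 are also on the fibroblast list. Klf10, an early response gene, fell by 0.91 with U0126 against FGF2, and Fn1 by 0.50, while Acta2 rose by 0.44 and Cdkn2b by 0.42. The Acta2 change turned to -0.12 once its probe sets were averaged. It was also not called after centring on the median of all probe sets (0.25) or of the genes tested (0.21). Timp3, a metalloproteinase inhibitor, read 3143 and 3356 with vehicle, 2091 and 2288 with FGF2 and 1298 and 1447 with SB202190 added, and fell by 0.68 with FGF2 and by a further 0.65 with SB202190. In the comparison of FGF2 with vehicle Tgfbi itself was not called.

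**Figure D4:**
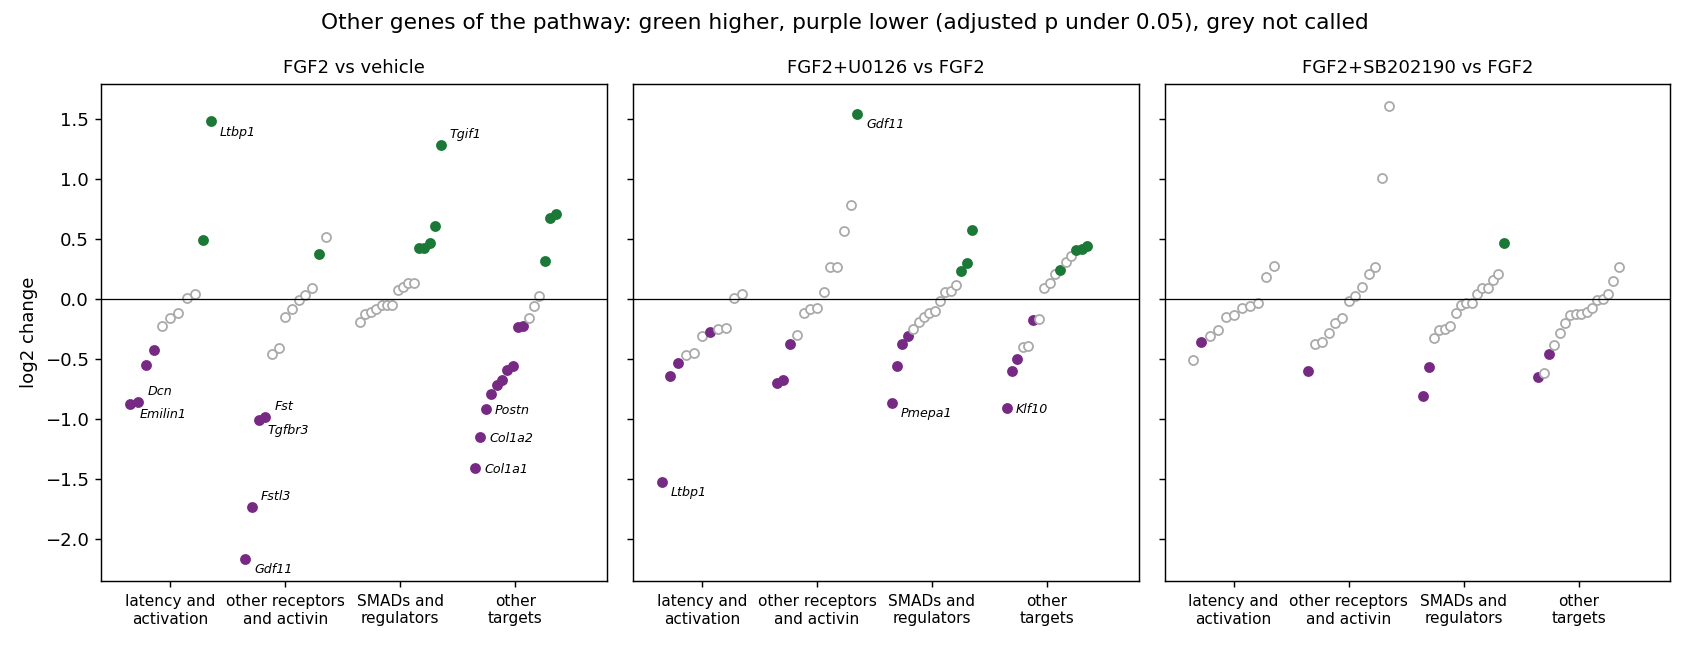
Log2 change of the 56 tested genes of the 4 pathway lists (1 point per gene, sorted within its list) in the 3 comparisons named above the panels; green points were higher and purple points lower at an adjusted p under 0.05, grey open points were not called, and called genes beyond 0.85 are named. FGF2 moved genes in both directions, with 11 higher and 18 lower (14 and 15 after centring on the median of all probe sets), and SB202190 moved 7 in all. With that centring 4018 of all 13178 genes tested were higher with FGF2 and 1479 lower.

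The genes whose log2 values followed Tgfbi, Tgfb2 and Thbs1 most closely over the 8 arrays were taken by Pearson correlation among 13164 other genes, as a description over 8 arrays in 4 groups. For Tgfbi they were Slc31a2 (0.985), Npvf (0.983), Tpbg (0.979), Selenos (0.977) and S100a4 (0.9746). Their sizes differed: with U0126 against FGF2 the log2 differences were -1.44 for Npvf and -0.98 for S100a4, a calcium-binding protein, but -0.19 for Selenos. For Tgfb2 they were Acadvl (0.995), Lpl (0.994), Col6a2 (0.993), Pawr (0.992) and Fmod (0.992). Lpl, lipoprotein lipase, differed by -1.30 between FGF2 and vehicle and Fmod, a matrix proteoglycan, by -1.01. For Thbs1 they were Pdzrn3 (0.988), Sec62 (0.986), Ptgr2 (0.986), 4933407L21Rik (0.984) and Ahnak (0.978).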

How the data were processed

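The authors deposited 1 table of linear intensity values for 45101 probe sets on 8 arrays; the algorithm that made them, the array's genome build and detection calls are not given in the sources used here. By platform annotation 34958 probe sets have a single symbol, and these alone named genes, 932 have more than 1 and 9211 have no symbol. Values were taken to log2(value + 1.77), the 10th percentile of all values, which understates changes of dim probe sets, and quantile normalized. The brightest probe set stood for a gene, and genes below the 40th percentile of probe set means (log2 3.83) were left out. limma 3.58.1 (R 4.3.3, variance trend on intensity; degrees of freedom 4 residual, 8.99 prior) was fitted to all 8 arrays, and p-values were two-sided, adjusted by Benjamini and Hochberg over 13174 genes within each of 6 comparisons. Single probe sets were fitted likewise. The fit was tested on simulated data, but no outcome is given here and nothing is read from it. The 2 arrays a group limit the precision.

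The 10 genes, the pathway and marker lists and the tests were chosen with earlier results of these data known. The text names all 10 genes, up to 4 called genes with the smallest p per pathway list and comparison, and the 5 most correlated genes of Tgfbi, Tgfb2 and Thbs1; marker genes and Ccn2 were named after their values were seen. Lists are described by counts alone. Alternatives changed the scaling, filter, pseudocount, trend, probe set rule, arrays and threshold.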

Additional observations from a re-analysis of the deposited data

Results flagged for a closer look

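For 7 of the 10 genes the level differed between the 2 inhibitor groups, both with FGF2, by the direct test (limma, adjusted p under 0.05). In that comparison 22.7% of all tested genes were called. Of these 7, Tgfbr1 and Tgfbi were not called with FGF2 against vehicle, so no effect on an FGF2 response is read for them. The difference, U0126 minus SB202190 on the log2 scale, was -1.30 for Tgfbi, -0.92 for Tgfb1, -0.83 for Tgfbr1, -0.55 for Smad3, -0.31 for Skil and -0.24 for Tgfbr2, and 0.57 for Tgfb2. Tgfbi and Skil fell with both inhibitors, so their difference is one of size. Tgfb1, Tgfbr1, Tgfbr2 and Smad3 were called lower with U0126 and not called with SB202190, and Tgfb2 was called with neither. When all probe sets of a gene were averaged, 4 of the 7 were not called: Tgfb1 (-0.32, adjusted p = 0.408), Tgfb2 (0.41, adjusted p = 0.0776), Tgfbr1 (-0.69, adjusted p = 0.0792) and Tgfbr2 (-0.022, adjusted p = 0.958). On leaving out 1 array, Tgfbr2 was not called without U0126 replicate 2 (-0.21) or without SB202190 replicate 1 (-0.25) or 2 (-0.23). Skil was not called without U0126 replicate 1 (-0.35) or 2 (-0.27) or without SB202190 replicate 2 (-0.21), and Tgfb1 without U0126 replicate 1 (-0.56) or without SB202190 replicate 1 (-0.94) or 2 (-0.89). With 2 samples a group no single array could be tested as standing apart.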

How the results depend on the processing

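Of 38 calls on the 10 genes 19 held under every alternative; 12 were lost on leaving out 1 array or another, 14 on averaging a gene's probe sets and 13 with no variance trend. The reversals among the 10 were Tgfbr2 under centring on the median of all probe sets, at 0.050 with FGF2 and 0.064 with SB202190 against vehicle. The number of the 10 genes called fell with the mean of probe sets to 1 (SB202190 against FGF2), 3 (U0126 against SB202190), 4 (U0126 against vehicle) and 5 (SB202190 against vehicle). Calls over all 12470 genes then tested fell too, to 170, 1783 and 3449 in the 1st, 2nd and last of these. Nothing particular to the 10 genes is read from such falls. Without the trend the number of the 10 called fell to 0 (SB202190 against FGF2), 3 (U0126 against FGF2) and 4 (U0126 against SB202190). Over all 13174 genes 0, 1619 and 1735 were then called. The counts of the 10 fell in other settings as well. The count of the 10 was 1 for SB202190 against FGF2 without probe sets that can bind several transcripts, and 4 for U0126 against SB202190 at an adjusted p under 0.01. It was 4 for U0126 against vehicle with centring on the median of all probe sets. With 1 array left out, counts ran from 6 to 8 (FGF2 against vehicle), 4 to 6 (U0126 against FGF2), 1 to 2 (SB202190 against FGF2), 5 to 7 (U0126 against vehicle), 6 to 8 (SB202190 against vehicle) and 4 to 8 (U0126 against SB202190).

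Of 81 calls on named pathway genes 43 held throughout. Reversals came with the mean of probe sets for Acta2 (U0126 against FGF2, -0.12), Ppm1a (U0126 against vehicle, -0.070, and against SB202190, -0.10) and Nedd4l (U0126 against FGF2, -0.24; SB202190 against FGF2, -0.049; U0126 against vehicle, -0.0035), and without probe sets that can bind several transcripts for Nedd4l (-0.078, -0.038 and -0.18). Over all genes SB202190 against FGF2 was least stable, with 398 called and 0 without the trend, 170 with the mean of probe sets, 115 at an adjusted p under 0.01, 235 with centring on the median of all probe sets and 82 to 396 with 1 array left out. U0126 against FGF2 (2916 called) gave 1619 without the trend, 1782 with the mean of probe sets, 1620 at the stricter threshold and 1782 to 2933 with 1 array left out. U0126 against SB202190 (2986) gave 1735, 1783, 1689 and 1805 to 3012, and U0126 against vehicle (4177) gave 2713 at the stricter threshold. The causes were not tested. Arrays with the same replicate number showed no shared shift over the genes tested (correlations of deviations from -0.0258 to 0.0337). These values cannot show whether such samples were prepared together. With the replicate block 7, 6, 2, 7, 7 and 7 of the 10 genes were called, in the order of the leave-out ranges.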
